A study of Mus musculus with 3 samples.

Results

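The genes of fatty acid and cholesterol synthesis were examined in single lung cells of injured mice, as 31 genes out of the 32287 features in each count matrix. All 31 were found by symbol, and they were split into a fatty acid branch of 14 genes and a sterol branch of 17. The members were listed by pathway, not by a level or ratio, but with earlier results of these data known. Cells were sorted into classes on other marker genes. The mice carried Scgb1a1-CreER, Sftpc-DreER and the R26-TLR reporter allele, and all of them had received bleomycin, a drug that injures the alveolar epithelium, 4 weeks earlier. Cells from whole lung were sorted by fluorescence into Club-Tracer cells (tdTomato only), BASC-Tracer cells (ZsGreen and tdTomato) and AT2-Tracer cells (ZsGreen only), and each sort gave 1 library. CreER followed Scgb1a1, a gene of airway club cells, and DreER followed Sftpc, a gene of alveolar type 2 (AT2) cells. BASC stands for bronchioalveolar stem cells, which express both genes. Uninjured mice are not analysed here, and ages, the number of animals and any pooling are not given in the sources used here.

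AT2 cells make and recycle surfactant, a film of phospholipid and protein that lowers surface tension in the alveoli. Its main lipid is a phosphatidylcholine with saturated chains, and AT2 cells build part of these chains themselves. Cytosolic acetyl-CoA is made by Acly, carboxylated by Acaca and condensed into palmitate by Fasn, with NADPH partly from Me1. Elongases (Elovl genes) lengthen fatty acids, and desaturases (Scd and Fads genes) place double bonds in them. The sterol branch starts from the same acetyl-CoA and runs through mevalonate, isoprenoids and squalene to cholesterol. Both branches answer to SREBP transcription factors, encoded by Srebf1 and Srebf2, which are held in the endoplasmic reticulum by Insig proteins when sterols are plentiful. AT2 cells give rise to the flat, gas-exchanging alveolar type 1 (AT1) cells, and a keratin-rich transitional state appears between them after injury.

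Filtering left 3196 cells in the Club-Tracer library, 1402 in BASC-Tracer and 5859 in AT2-Tracer. Their median depths were 15406, 15222 and 9682 UMIs (unique molecular identifiers, 1 for each captured RNA molecule). The 31 genes took 0.292%, 0.479% and 0.457% of these UMIs. The gate left 27.9% of the 10457 cells unassigned. In the order Club-Tracer, BASC-Tracer and AT2-Tracer, AT2 cells numbered 488, 389 and 1876, transitional cells 108, 90 and 516, and AT1 cells 34, 63 and 589. Club cells numbered 1084, 163 and 9, ciliated cells 403, 71 and 15, and macrophages 7, 97 and 1303. Sums over fewer than 50 cells entered no comparison, which leaves 14 combinations of class and library. The submitters describe the cells as lung epithelium, but macrophages with Ptprc at 421 and 405 CPM (counts of a gene per 1000000 UMIs) were in the BASC-Tracer and AT2-Tracer sorts. The marker genes that set the classes are high in their own class by construction, so their levels do not check the class names. Sftpc stood between 74090 and 93070 CPM in AT2 cells and Krt8 between 2964 and 4033 in transitional cells. Ager was at 10974 and 11544 CPM in AT1 cells, and Foxj1 at 1138 and 1272 in ciliated cells. Scgb1a1 stood at 351000 and 325465 CPM in club cells, so that this 1 gene took up a large part of their total. AT2 cells held Scgb1a1 at 38581 CPM (Club-Tracer), 8802 CPM (BASC-Tracer) and 61.9 CPM (AT2-Tracer). Kept barcodes shared between libraries numbered 6, 23 and 14 for the 3 pairs.

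Levels are CPM of UMIs summed over the cells of a class in 1 library. A UMI count carries no gene length, since each captured molecule counts once, but capture may differ between genes. With 1 library for each lineage there is no replicate and no test. Brackets give exact 95% Poisson intervals of a level, or exact conditional intervals of a ratio, which cover counting error only. A gene was counted as apart between 2 classes or libraries when it differed at least 2-fold on the log2((CPM + 5)/(CPM + 5)) scale with at least 50 CPM on the higher side. This is a rule of size, and its share over all genes past that level stands beside each count at the main settings. Under other settings that share was not computed, and those counts are given alone.

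The fatty acid branch was highest in AT2 cells in each library that could be compared. Its summed level was 6697 CPM (6650 to 6745) in Club-Tracer, 7419 CPM (7367 to 7472) in BASC-Tracer and 6582 CPM (6552 to 6611) in AT2-Tracer AT2 cells. Transitional cells held 1348, 2011 and 1869 CPM, and AT1 cells 2248 CPM in the BASC-Tracer and 2499 CPM in the AT2-Tracer library. Club cells held 841 CPM (Club-Tracer) and 1005 CPM (BASC-Tracer), ciliated cells 700 and 723 CPM in the same libraries, and macrophages 505 and 532 CPM in the BASC-Tracer and AT2-Tracer libraries. The lowest AT2 sum was thus above the highest sum of any other class. The sterol branch differed less, from 438 CPM in Club-Tracer club cells to 1182 CPM in Club-Tracer AT2 cells. Its AT2 sums were 1182, 1150 and 1054 CPM, against 695, 751 and 690 CPM in transitional cells, 636 and 847 CPM in AT1 cells and 517 and 676 CPM in macrophages. In summed CPM, fatty acid genes exceeded sterol genes 5.67-fold, 6.45-fold and 6.24-fold in AT2 cells. The same quotient was 1.94, 2.68 and 2.71 in transitional cells and 0.977 and 0.787 in macrophages, where the branches were close to even or the sterol branch was ahead. Scd1 alone gave 3485, 3810 and 3285 CPM of the AT2 fatty acid sums, and 417, 888 and 888 CPM of the transitional ones. The fatty acid totals and these quotients thus rest in large part on 1 gene in AT2 cells.

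**Figure D1:**
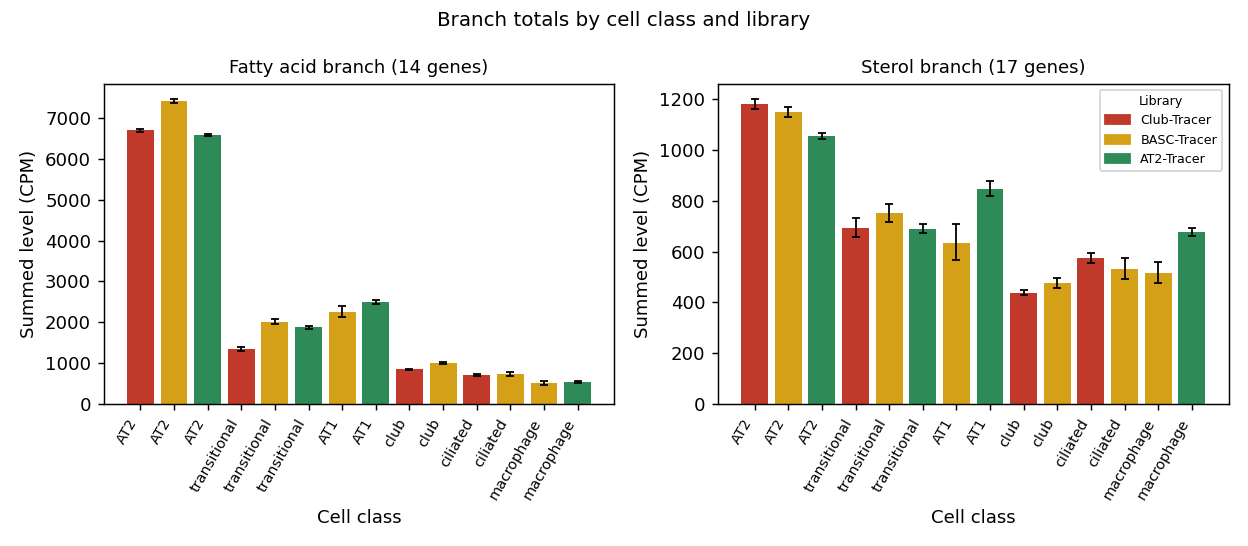
Summed level (CPM, linear axes with different ranges) of the 14 fatty acid genes and the 17 sterol genes for each cell class and library, with colour for the library and bars for exact 95% Poisson intervals. The AT2 bars stand between 6582 and 7419 CPM in the fatty acid panel and between 1054 and 1182 CPM in the sterol panel.

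Promoter windows were looked up for the members, as the 250 bases before and 50 after each RefSeq transcript start in GRCm38.p6. RefSeq windows were matched by symbol for 25 members, with 34 windows in all. Searched on both strands, the sterol regulatory element TCACNCCAC was in 3 of the 34 windows (1 of Hmgcs1 and 2 overlapping ones of Pcyt1a that hold the same site) against 1.24% of 32851 windows of all genes. The CCAAT box CCAAT, to which the SREBP partner NF-Y binds, was in 13 of 17 sterol windows (76.5%) and 7 of 17 fatty acid windows (41.2%), against 37.4% of all windows. Some genes have several windows. Counted by gene, 13 of 14 sterol and 6 of 11 fatty acid genes had the box in any window, and no such share was computed for all genes. The E-box CACGTG was in 4 windows against 7.15% of all. These 3 motifs share no letters that force an overlap, but a CCAAT box can overlap its own reverse complement. The 4 windows printed here belong to the AT2-high genes Fasn, Elovl1 and Pmvk and to Hmgcs1, which stood at like levels in AT2 and AT1 cells. Elovl1 and Pmvk each have another window, at a later start, that holds none of the 3 motifs and is not printed. Capitals mark CCAAT or its reverse complement ATTGG and, in Hmgcs1, the sterol regulatory element, 137 bases before the start. A match is a run of letters, and binding was not measured.
Fasn (chr11:120824498-120824797, - strand): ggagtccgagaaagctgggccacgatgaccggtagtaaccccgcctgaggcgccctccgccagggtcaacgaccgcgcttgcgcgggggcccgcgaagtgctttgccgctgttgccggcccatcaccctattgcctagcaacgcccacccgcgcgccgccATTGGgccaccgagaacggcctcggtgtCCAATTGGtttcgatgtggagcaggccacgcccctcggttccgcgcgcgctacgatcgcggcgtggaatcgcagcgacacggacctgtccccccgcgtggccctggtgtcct
Elovl1 (chr4:118427843-118428142, + strand): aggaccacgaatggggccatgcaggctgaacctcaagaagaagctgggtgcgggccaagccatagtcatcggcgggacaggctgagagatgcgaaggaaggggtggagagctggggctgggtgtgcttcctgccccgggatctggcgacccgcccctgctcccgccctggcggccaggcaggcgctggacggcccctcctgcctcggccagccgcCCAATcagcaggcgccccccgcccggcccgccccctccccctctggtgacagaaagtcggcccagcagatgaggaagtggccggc
Pmvk (chr3:89454291-89454590, + strand): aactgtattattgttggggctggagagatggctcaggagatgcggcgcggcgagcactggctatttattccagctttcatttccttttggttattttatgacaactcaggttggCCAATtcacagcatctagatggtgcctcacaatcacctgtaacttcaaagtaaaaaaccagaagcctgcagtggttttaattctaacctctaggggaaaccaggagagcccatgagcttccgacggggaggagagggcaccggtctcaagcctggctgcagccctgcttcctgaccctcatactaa
Hmgcs1 (chr13:119690101-119690400, + strand): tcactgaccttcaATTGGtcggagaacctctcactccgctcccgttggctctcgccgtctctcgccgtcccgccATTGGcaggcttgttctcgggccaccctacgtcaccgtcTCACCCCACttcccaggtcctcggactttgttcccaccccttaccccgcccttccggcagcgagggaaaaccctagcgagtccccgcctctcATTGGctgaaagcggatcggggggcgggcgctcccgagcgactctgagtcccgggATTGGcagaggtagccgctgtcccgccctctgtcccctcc

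Srebf1, the SREBP gene tied most closely to fatty acid synthesis (ENSMUSG00000020538, chr11:60199089-60222581, - strand of mm10), was highest in AT2 cells at 98.6, 110 and 96.5 CPM in the order Club-Tracer, BASC-Tracer and AT2-Tracer. It stood at 49.4, 65.0 and 55.3 CPM in transitional cells, 72.2 and 67.9 CPM in AT1 cells, 30.99 and 37.9 CPM in club cells, 73.9 and 64.4 CPM in ciliated cells and 26.0 and 28.1 CPM in macrophages. Its span from the highest to the lowest sum was 4.21-fold, against 70.7-fold for Fasn.

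Fasn, the fatty acid synthase (ENSMUSG00000025153, chr11:120805846-120824547, - strand), stood at 537 CPM (524 to 551), 687 CPM (671 to 704) and 698 CPM (688 to 708) in AT2 cells. It was at 41.4, 84.5 and 68.9 CPM in transitional cells and at 80.2 and 119 CPM in AT1 cells. In club cells it was at 36.6 and 43.6 CPM, in ciliated cells at 36.6 and 29.5 CPM, and in macrophages at 9.87 and 17.2 CPM. All 3 AT2 sums were above every other sum, and the ratio of AT2 to transitional cells was 13.0 (10.5 to 16.4), 8.14 (7.07 to 9.41) and 10.1 (9.34 to 11.01). The steps around it moved less. Acaca, the carboxylase that makes malonyl-CoA, was at 61.8, 101 and 95.6 CPM in AT2 cells and at 19.2, 31.8 and 25.0 CPM in transitional cells. Acly was at 152, 182 and 152 CPM in AT2 cells, 90.8, 108 and 63.8 CPM in transitional cells and 87.0 and 73.6 CPM in macrophages. Me1, malic enzyme, was close to even between AT2 cells (215, 248 and 220 CPM) and transitional cells (149, 181 and 167 CPM). In macrophages Me1 fell to 7.18 and 4.71 CPM, the lowest of its levels.

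Elovl1, an elongase of very long saturated chains (ENSMUSG00000006390, chr4:118428093-118432953, + strand), was the second most abundant member in AT2 cells, at 1229 CPM (1209 to 1250), 1125 CPM (1105 to 1146) and 1027 CPM (1015 to 1039). It stood at 95.9, 85.3 and 122 CPM in transitional cells, 120 and 176 CPM in AT1 cells, 62.3 and 66.7 CPM in club cells, 70.3 and 54.4 CPM in ciliated cells and 43.1 and 67.9 CPM in macrophages. The AT2 to transitional ratio was 12.8 (11.1 to 14.9), 13.2 (11.5 to 15.2) and 8.43 (7.93 to 8.97). Elovl5, an elongase of polyunsaturated chains (ENSMUSG00000032349, chr9:77917364-77984519, + strand), had another order, with its highest sums in AT1 cells at 245 CPM (203 to 292) and 179 CPM (166 to 193). AT2 cells held 86.6, 114 and 93.7 CPM of Elovl5, and transitional cells 111, 115 and 71.9 CPM. Elovl6, which extends palmitate to stearate, reached at most 7.57 CPM in any of the 14 sums and 0.0679 CPM in AT2-Tracer AT2 cells. It was seen at no more than a trace in these libraries, and no comparison was made for it.

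Scd1 and Scd2, stearoyl-CoA desaturases that place the first double bond in saturated chains, lie close together on chromosome 19 (ENSMUSG00000037071, 44394455 to 44407879, - strand, and ENSMUSG00000025203, 44293674 to 44306864, + strand). Their levels ran in different orders over the classes. Scd1 was the most abundant member in AT2 cells, at 3485 CPM (3451 to 3519) in Club-Tracer, 3810 CPM (3772 to 3848) in BASC-Tracer and 3285 CPM (3265 to 3306) in AT2-Tracer cells. Transitional cells came next, at 417 CPM in Club-Tracer and 888 CPM in both BASC-Tracer and AT2-Tracer cells. AT1 cells held 289 CPM (BASC-Tracer) and 417 CPM (AT2-Tracer), club cells 196 and 259 CPM, ciliated cells 76.1 and 103 CPM, and macrophages 18.8 and 66.2 CPM. The AT2 sums thus stood apart from all others, while Club-Tracer transitional cells were level with AT2-Tracer AT1 cells. Scd2 was highest in AT1 cells, at 1061 CPM (972 to 1155) and 1157 CPM (1123 to 1192). AT2 cells held 269, 335 and 368 CPM of Scd2 and transitional cells 143, 184 and 224 CPM, so the class between AT2 and AT1 cells in the keratin-rich state was below both. Club cells held 54.6 and 68.7 CPM, ciliated cells 92.0 and 88.5 CPM, and macrophages 22.4 and 47.6 CPM.

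The order was also seen cell by cell. After each cell was thinned to 1500 UMIs, Scd1 UMIs outnumbered Scd2 UMIs in 80.3% (exact Clopper-Pearson interval 76.5 to 83.8), 87.6% (83.8 to 90.8) and 85.8% (84.0 to 87.4) of AT2 cells, with the libraries in the same order as above. In AT1 cells Scd2 was ahead in 30 of 60 BASC-Tracer cells (interval 36.8% to 63.2%) and in 58.7% (54.3 to 62.9) of AT2-Tracer cells, and Scd1 in 16.7% and 16.8%. Without thinning, Scd2 was ahead in 63.5% and 72.3% of AT1 cells. Transitional cells lay between AT2 and AT1 cells in the share led by Scd1, with Scd1 ahead in 29.6%, 36.7% and 45.6% and Scd2 ahead in 13.9%, 11.1% and 11.8%. Neither gene had a UMI in 54.6%, 43.3% and 37.5% of these thinned transitional cells. Without thinning, Scd1 was ahead in 67.6%, 67.8% and 72.7% of transitional cells. Any Scd1 UMI was seen in 84.1%, 91.2% and 91.4% of AT2 cells, and in 98.6%, 99.5% and 98.1% without thinning. Macrophages, which make no surfactant, showed it in 5.32% and 10.6% (16.5% and 31.01% without thinning), at medians of 10419 and 7775 UMIs against 23970, 25919 and 15378 in AT2 cells. For Fasn the thinned shares were 47.1%, 52.2% and 58.4% of AT2 cells against 0% of 94 BASC-Tracer macrophages, which allows up to 3.85%, and 1.96% of AT2-Tracer macrophages. Without thinning, Fasn was seen in 90.6%, 90.5% and 88.4% of AT2 cells and in 6.19% and 11.7% of macrophages. Thinning left out 10, 25 and 141 shallower AT2 cells and 3 and 29 macrophages. The median AT2 cell held 8, 9 and 9 fatty acid UMIs of 1500 and 1 sterol UMI.

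Free RNA, released by broken cells, can be captured with any barcode. Barcodes with under 500 genes, which the submitters' cell calling had kept, held Scd1 at 425 CPM (Club-Tracer), 970 CPM (BASC-Tracer) and 1098 CPM (AT2-Tracer). When their profile was subtracted from each class until all of its Sftpc was gone, Scd1 in transitional cells was left at 409, 829 and 749 CPM and in AT1 cells at 226 and 309 CPM. In macrophages it was left at 0 and 28.1 CPM. Scd2 in AT1 cells was left at 1055 and 1139 CPM. This profile is no pure measure of free RNA: in the AT2-Tracer library it held Scgb1a1 at 8808 CPM, against 28.9 CPM in macrophages. How much of the Scd1 in macrophages is their own was not settled by it.

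**Figure D2:**
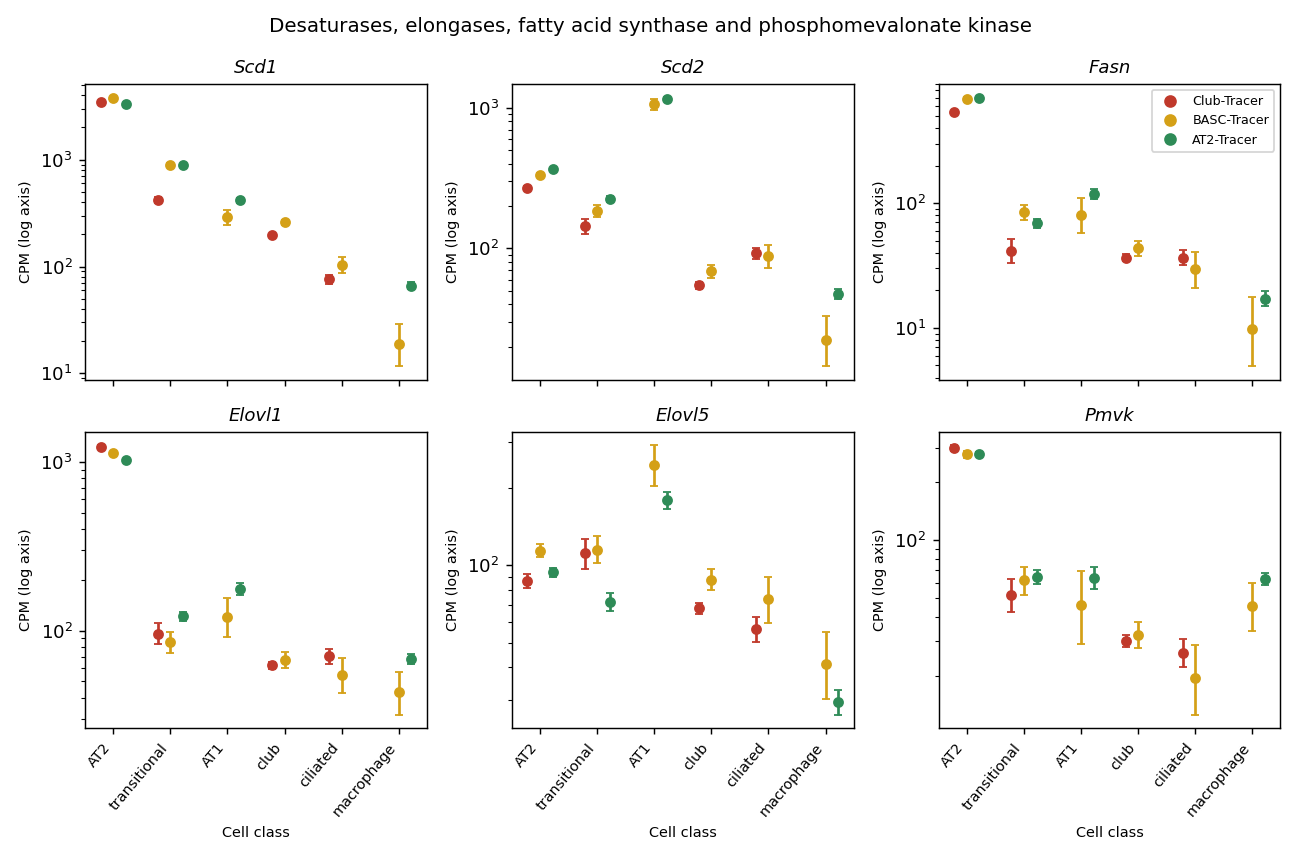
Level (CPM, log axis) of 6 members in each cell class, with 1 point for each library of at least 50 cells and bars for exact 95% Poisson intervals. Scd1, Fasn, Elovl1 and Pmvk have their highest points in AT2 cells, and Scd2 (1061 and 1157 CPM) and Elovl5 (245 and 179 CPM) in AT1 cells.

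The remaining fatty acid members were Acsl4, Pcyt1a and the Fads genes. Acsl4, which activates long polyunsaturated chains as CoA esters, was at 425, 561 and 430 CPM in AT2 cells and between 64.9 and 167 CPM in all other sums. Pcyt1a, the rate-setting enzyme of phosphatidylcholine synthesis, ran from 33.8 CPM in Club-Tracer club cells to 98.7 CPM in BASC-Tracer macrophages, with 67.0, 86.4 and 62.8 CPM in AT2 cells. The front-end desaturases Fads1 and Fads2 were low, at most 42.5 and 26.2 CPM, both in Club-Tracer AT2 cells.

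In the sterol branch, regulators came first. Srebf2, the SREBP gene of cholesterol synthesis (ENSMUSG00000022463, chr15:82147181-82205379, + strand), was at 65.2, 75.8 and 74.2 CPM in AT2 cells, 53.0, 59.4 and 57.9 CPM in transitional cells and 60.2 and 83.3 CPM in AT1 cells. It was at 29.6 and 32.7 CPM in club cells, 71.8 and 69.9 CPM in ciliated cells and 59.2 and 63.7 CPM in macrophages. Club cells stood lowest, and transitional cells were below AT2 cells in each library. Insig1, which retains SREBP, was at 114, 123 and 83.9 CPM in AT2 cells, 27.8, 49.3 and 36.8 CPM in transitional cells and 91.5 and 80.3 CPM in macrophages.

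Pmvk, phosphomevalonate kinase (ENSMUSG00000027952, chr3:89454541-89469013, + strand), was the most abundant sterol gene in AT2 cells of each library. It stood at 299 CPM (289 to 309), 277 CPM (267 to 288) and 278 CPM (272 to 284) in AT2 cells. It was at 52.0, 62.0 and 64.9 CPM in transitional cells, 46.1 and 64.1 CPM in AT1 cells, 30.2 and 32.5 CPM in club cells, 26.1 and 19.4 CPM in ciliated cells and 45.8 and 62.9 CPM in macrophages. Hmgcs1, which makes HMG-CoA (ENSMUSG00000093930, chr13:119690379-119708260, + strand), was at 96.3, 115 and 101 CPM in AT2 cells, 76.7, 86.2 and 72.9 CPM in transitional cells and 90.2 and 119 CPM in AT1 cells. It was at 34.9 and 33.9 CPM in club cells, 97.5 and 63.7 CPM in ciliated cells and 53.8 and 65.3 CPM in macrophages. The enzyme before and the enzyme after mevalonate thus differed in their order over the classes.

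Sqle, the squalene epoxidase (ENSMUSG00000022351, chr15:59315077-59331192, + strand), was highest in ciliated cells at 86.6 CPM (79.0 to 94.7) and 116 CPM (97.9 to 136). AT2 cells held 34.9, 34.3 and 27.8 CPM, transitional cells 35.8, 34.0 and 28.4 CPM, AT1 cells 44.1 and 37.5 CPM, club cells 25.9 and 31.3 CPM and macrophages 14.4 and 26.8 CPM. Ciliated cells had the lowest levels of Idi1 and Cyp51 among the 14 sums. Idi1, the isopentenyl isomerase, was at 17.2 and 16.3 CPM there against 85.0, 102 and 76.3 CPM in AT2 cells, and Cyp51, the lanosterol demethylase, at 13.95 and 8.54 CPM against 40.8, 42.5 and 34.9 CPM. Fdps, which makes farnesyl diphosphate, was at 159, 110 and 130 CPM in AT2 cells and at 30.5 and 77.2 CPM in macrophages. Fdft1, the squalene synthase, was at 78.2, 86.6 and 83.7 CPM in transitional cells, 70.4, 57.3 and 52.4 CPM in AT2 cells and 58.2 and 83.3 CPM in AT1 cells, differences under 2-fold. Dhcr7, the last reductase, was highest in macrophages at 19.7 and 16.0 CPM and stood between 2.01 and 7.04 CPM elsewhere. Among the other late enzymes Msmo1 spanned 29.1 to 57.6 CPM, Sc5d 10.1 to 48.1 CPM, Lss 9.24 to 31.2 CPM and Nsdhl 9.87 to 25.5 CPM. Among the early enzymes Acat2 was at 8.02 to 48.3 CPM, Mvk at 8.83 to 28.7 CPM and Mvd at 1.55 to 34.9 CPM.

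**Figure D3:**
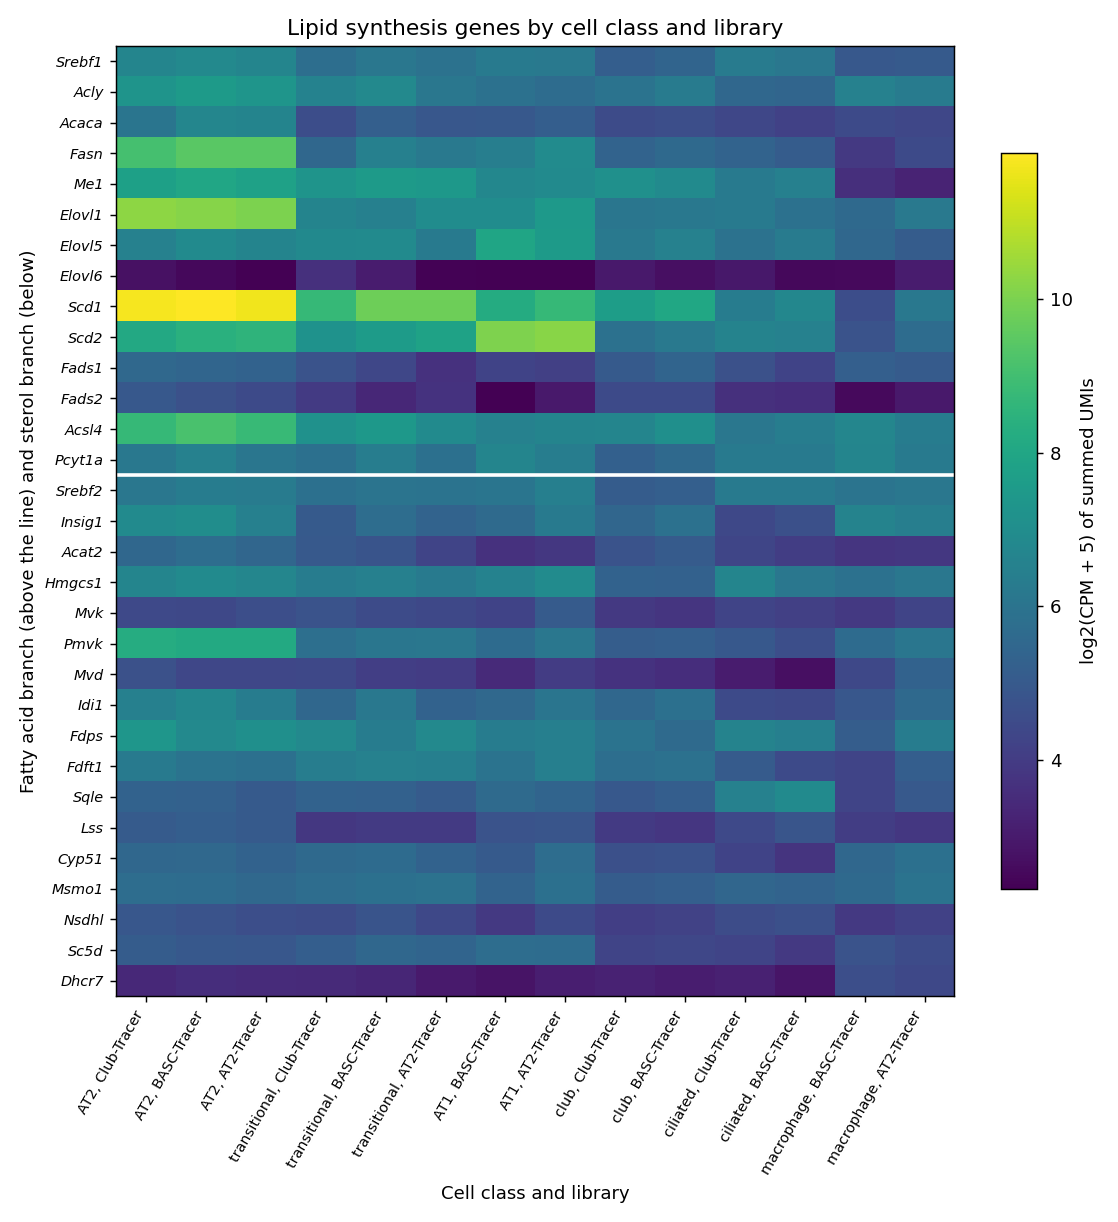
Level of all 31 genes as log2(CPM + 5) for the 14 combinations of class and library with at least 50 cells, fatty acid genes above the white line and sterol genes under it. Scd1, Elovl1 and Fasn are brightest in AT2 cells, Scd2 in AT1 cells, and the highest sterol gene outside AT2 cells is Hmgcs1, at 119 CPM in AT2-Tracer AT1 cells.

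AT2 cells were then compared with transitional cells inside each library. Members apart were all higher in AT2 cells: 7 of 31 in Club-Tracer, 7 in BASC-Tracer and 9 in AT2-Tracer cells, with 18, 19 and 19 of the 31 past 50 CPM. Over all genes past that level, 5.50%, 6.11% and 6.86% were at least 2-fold higher in AT2 cells, and 16.5%, 14.4% and 15.3% at least 2-fold lower. The median gene past that level lay at -0.46, -0.41 and -0.39 on the log2 scale. The median of all 31 members, past that level or not, lay at 0.54, 0.50 and 0.48. The median gene and the median member are taken over these same unlike sets in the comparisons that follow. Acaca, Acsl4, Elovl1, Fasn, Insig1, Pmvk and Scd1 were apart in each of the 3 libraries, and Acly and Idi1 in AT2-Tracer cells besides. With classes taken from clusters Acaca fell under 2-fold in Club-Tracer (log2 difference 0.99) and BASC-Tracer cells (0.79), and Insig1 (0.61) and Idi1 (0.68) in AT2-Tracer cells. Those classes also brought Fasn from 2.95 to 2.28 in BASC-Tracer and from 3.25 to 2.65 in AT2-Tracer cells, and Elovl1 from 3.65 to 2.89 in BASC-Tracer cells. Acly fell to 0.99 with the mean of the cells' own CPM, Insig1 and Idi1 to 0.87 and 0.80 with a pseudocount of 20, and Idi1 to 0.88 with the mean of the cells' own CPM. A minimum of 100 CPM removed Acaca in Club-Tracer and AT2-Tracer cells and Insig1 and Idi1 in AT2-Tracer cells. Scd1 was 8.35-fold higher in AT2 cells (7.80 to 8.96) in Club-Tracer, 4.29-fold (4.11 to 4.49) in BASC-Tracer and 3.70-fold (3.62 to 3.79) in AT2-Tracer cells. The branch totals differed 4.97-fold, 3.69-fold and 3.52-fold for fatty acid genes and 1.70-fold, 1.53-fold and 1.53-fold for sterol genes. The count in Club-Tracer cells rose to 12 with the 10 most abundant genes of each library left out of every total. It rose to 11 with the median ratio set to 1. The share of all genes was not computed at these settings.

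Against AT1 cells, 10 members were higher and 2 lower in BASC-Tracer AT2 cells, and 7 higher and 1 lower in AT2-Tracer AT2 cells. Among all genes 10.8% and 8.14% were higher and 20.0% and 18.8% lower, with the median gene at -0.35 in both libraries and the median member at 0.78 and 0.28. Of the 31 members 18 and 19 passed 50 CPM. These AT2 sums are the same ones that entered the comparison with transitional cells. Scd1 was 13.2-fold (11.2 to 15.7) and 7.87-fold (7.49 to 8.28) higher in AT2 cells, and Scd2 was 3.17-fold (2.89 to 3.48) and 3.14-fold (3.03 to 3.25) higher in AT1 cells. Elovl5 was 2.15-fold (1.77 to 2.59) and 1.91-fold (1.75 to 2.08) higher in AT1 cells. In BASC-Tracer cells its log2 difference of -1.07 lost the 2-fold size under 5 of 19 alternatives. Fasn, Elovl1, Acsl4, Acaca, Acly and Pmvk were higher in AT2 cells of both libraries. The fatty acid total was 3.30-fold and 2.63-fold higher in AT2 cells and the sterol total 1.81-fold and 1.25-fold. In AT2-Tracer cells Pmvk (278 against 64.1 CPM) was the 1 sterol gene apart of 8 past 50 CPM. Among the others past that level, Fdps (0.60), Idi1 (0.28) and Insig1 (0.24) had log2 values on the AT2 side. Hmgcs1 (-0.23), Msmo1 (-0.29), Fdft1 (-0.62) and Srebf2 (-0.16) had values on the AT1 side. Depth differed between the classes: AT1 cells had medians of 6109 and 5096 UMIs.

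Transitional and AT1 cells, set against each other, gave 1 member higher (Scd1) and 2 lower (Scd2 and Elovl5) in transitional cells in both libraries. Of the 31 members 17 (BASC-Tracer) and 18 (AT2-Tracer) passed 50 CPM. Among all genes 11.5% were higher and 9.83% lower in BASC-Tracer cells, and 8.25% and 10.2% in AT2-Tracer cells, so the members' counts were near the background. Scd2 was 5.76-fold (5.06 to 6.55) and 5.16-fold (4.89 to 5.45) higher in AT1 cells, and Elovl5 2.13-fold and 2.49-fold. With classes from clusters the log2 differences of Scd2 went from -2.49 and -2.34 to -1.64 and -1.72, and those of Elovl5 from -1.06 and -1.26 to -0.86 and -0.98, under 2-fold. Scd1 was 3.07-fold (2.60 to 3.67) and 2.13-fold (2.02 to 2.25) higher in transitional cells, and in AT2-Tracer cells its log2 difference of 1.08 became 0.96 with a gate minimum of 0.4. The fatty acid totals of transitional cells were 0.895 and 0.748 of those in AT1 cells, and with classes taken from clusters the BASC-Tracer value was 1.17. With no minimum level the BASC-Tracer count of 3 became 5.

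Against club cells, 13 members were higher in Club-Tracer and 14 in BASC-Tracer AT2 cells, and none was 2-fold lower. In each library 18 of the 31 members passed 50 CPM. Among all genes 15.4% and 17.5% were higher and 3.56% and 3.96% lower, and the median gene lay at 0.54 in both, a shift in the direction of the members, whose medians were 0.99 and 0.94. The fatty acid total was 7.96-fold and 7.38-fold higher in AT2 cells, and 3.95-fold and 3.37-fold with classes from clusters. The sterol total was 2.70-fold and 2.42-fold higher, and 1.75-fold and 1.52-fold with those classes. Elovl1 was 19.7-fold (18.7 to 20.8) and 16.9-fold (15.1 to 18.9) higher, Scd1 17.7-fold and 14.7-fold, Fasn 14.7-fold and 15.8-fold, and Pmvk 9.90-fold and 8.52-fold. With classes from clusters the log2 differences fell to 3.27 and 3.18 for Elovl1, from 4.12 and 3.85 to 2.10 and 1.82 for Scd1, from 3.71 and 3.83 to 2.56 and 2.21 for Fasn, and from 3.11 and 2.91 to 2.12 and 2.07 for Pmvk. With the median ratio set to 1 the counts were 8 and 8, and those lost included Srebf2, Insig1 and Fdps in both libraries.

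Against macrophages, 15 members were higher in BASC-Tracer and 11 in AT2-Tracer AT2 cells, and none was 2-fold lower. Of the 31 members 18 and 20 passed 50 CPM. Among all genes 21.7% and 21.4% were higher and 25.9% and 23.2% lower. The median gene lay at 0.09 in both libraries and the median member at 1.12 and 0.71. Scd1 stood at 3810 against 18.8 CPM (21 UMIs) and at 3285 against 66.2 CPM, and no exact fold is read from these macrophage levels. Its log2 difference ran from 3.70 to 9.61 in BASC-Tracer and from 3.90 to 6.63 in AT2-Tracer cells over the alternatives, lowest with classes from clusters. Fasn had log2 differences of 5.54 and 4.99, which fell to 3.45 and 3.44 with those classes, and Me1 of 4.38 and 4.53, which fell to 3.76 and 3.27. Acly had a log2 difference of 1.02 in BASC-Tracer cells and 1.00 in AT2-Tracer cells, where it lost the 2-fold size under 8 of 19 alternatives. The fatty acid totals differed 14.7-fold and 12.4-fold, and 8.37-fold and 7.68-fold with classes from clusters. In AT2-Tracer cells Pmvk was the 1 sterol gene apart, and Cyp51 (-0.53) and Msmo1 (-0.40) had log2 values on the macrophage side.

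The lineage sorts were compared inside a class. Lineage, sort, animal and library cannot be told apart with 1 library each. In AT2 cells no member was 2-fold apart between any 2 libraries, and in each pair 18 of the 31 members passed 50 CPM. Among all genes 5.69% were apart between Club-Tracer and AT2-Tracer, 1.95% between BASC-Tracer and AT2-Tracer and 1.15% between Club-Tracer and BASC-Tracer cells. The fatty acid total was 1.02-fold (1.01 to 1.03), 1.13-fold (1.12 to 1.14) and 0.903-fold (0.894 to 0.912) in these pairs. Acaca in Club-Tracer AT2 cells was at 0.613 (0.556 to 0.675) of the BASC-Tracer and 0.646 (0.595 to 0.702) of the AT2-Tracer level, and Insig1 was at 1.47 (1.37 to 1.57) of it in BASC-Tracer cells. These AT2 cells were spread over clusters in different shares. Cluster 17, high in Lyz1, held 53.9% (Club-Tracer), 37.0% (BASC-Tracer) and 2.72% (AT2-Tracer) of them, and was the largest in Club-Tracer and BASC-Tracer cells. Cluster 10, high in Il33 and Itih4, held 20.3% (BASC-Tracer) and 56.8% (AT2-Tracer). The 12 club markers summed to 44893, 12532 and 1281 CPM in the AT2 cells of the 3 libraries, and the part of this gradient in the members' values was not tested.

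**Figure D4:**
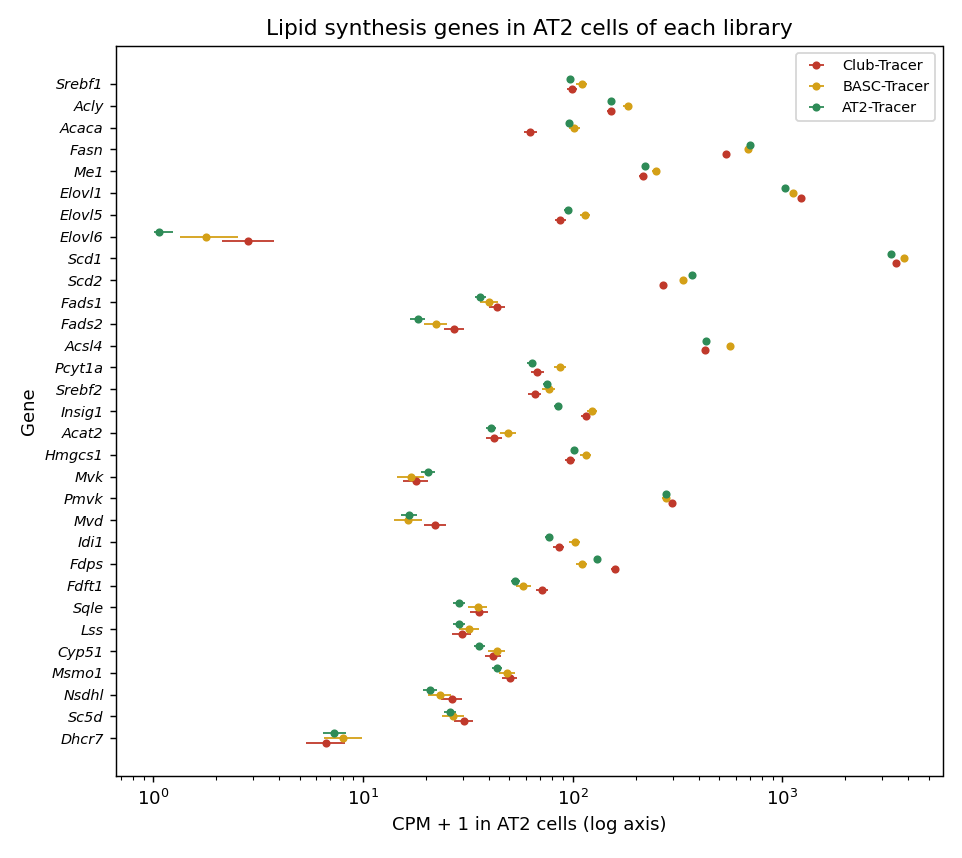
Level of each member in AT2 cells (CPM + 1, log axis) with 1 point for each library and exact 95% Poisson intervals. The 3 points lie close together for most genes, and the most abundant, Scd1, stands at 3485, 3810 and 3285 CPM.

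In transitional cells 1 member, Scd1, was apart between Club-Tracer and AT2-Tracer (4.98% of all genes) and between Club-Tracer and BASC-Tracer (1.89%), and none between BASC-Tracer and AT2-Tracer (2.27%). In these pairs 16, 17 and 17 of the 31 members passed 50 CPM. The Club-Tracer level of Scd1, 417 CPM, was 0.470 of the other 2 (0.437 to 0.505 against AT2-Tracer cells, 0.433 to 0.510 against BASC-Tracer cells). The difference from AT2-Tracer cells fell under 2-fold with classes from clusters and with the profile of barcodes under 500 genes subtracted, and the difference from BASC-Tracer cells with the median ratio set to 1. Barcodes under 500 genes held 425 CPM of Scd1 in the Club-Tracer library and 970 and 1098 CPM in the other libraries, and the part of free RNA in this difference was not tested. The class also differed in makeup. Cluster 12 held 44.4%, 48.9% and 67.6% of the transitional cells in the order used above, cluster 15 held 22.2% of Club-Tracer ones, and cluster 4 held 25.6% of BASC-Tracer and 25.0% of AT2-Tracer ones. Sftpc in them stood at 157, 999 and 3038 CPM and the summed club markers at 11821, 3757 and 419 CPM, while the summed AT2 markers stood at 5423, 4858 and 5692 CPM. The part of these in the Scd1 values was not tested.

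In AT1 cells no member of 18 past 50 CPM was apart between BASC-Tracer and AT2-Tracer (1.79% of all genes), and 2 were with the mean of the cells' own CPM. In club cells (11 members past that level, 0.972% of all genes apart) and ciliated cells (12 members, 0.575%) none was apart between the Club-Tracer and BASC-Tracer sorts. In macrophages 12 members passed it. Fdps and Scd1 were lower in BASC-Tracer than in AT2-Tracer macrophages (11.2% of all genes apart), at 0.395 (0.272 to 0.556) and 0.284 (0.175 to 0.438) of the AT2-Tracer level. With classes from clusters the Scd1 difference turned, from -1.58 to 0.44 on the log2 scale. Its call also ended under both subtractions of the low-gene profile, where its level fell under 50 CPM, and under a minimum of 100 CPM. That of Fdps ended with a pseudocount of 20 (-0.94) and a minimum of 100 CPM. Cluster 24 held 83.5% of the BASC-Tracer and 43.0% of the AT2-Tracer macrophages.

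Other genes of lipid metabolism were read from 5 lists. In AT2-Tracer cells, AT2 against transitional, 6.86% of all genes past 50 CPM were higher and 15.3% lower. Of the 14 phosphatidylcholine and surfactant lipid genes 9 passed that level, and 5 were 2-fold higher and none lower. The median over all 14 was 0.40, and that of all genes past 50 CPM was -0.39. Abca3, the lipid transporter of lamellar bodies, was at 638 against 68.3 CPM (log2 difference 3.13), and Pla2g1b, a secreted phospholipase, at 240 against 16.0 CPM (3.55). Of 18 further fatty acid synthesis and activation genes 7 passed 50 CPM and 3 were higher, led by Mid1ip1, an activator of acetyl-CoA carboxylase, at 281 against 76.3 CPM (1.82), followed by Acsl5 (1.32). Of 16 genes of uptake, storage and efflux 8 passed and 3 were higher, among them the scavenger receptor Cd36 (2.89) and the sterol esterifying enzyme Soat1 (2.74), and 1 was lower, the cholesterol exporter Abca1 (-1.09). Of 14 further sterol genes 2 passed 50 CPM, and of 12 fatty acid oxidation genes 5 passed, and none of these was apart. Insig2, which retains SREBP as Insig1 does, had a log2 difference of -0.46, and Hadhb, a subunit of the mitochondrial oxidation complex, one of -0.29.

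Macrophages and AT1 cells differed from AT2 cells in the uptake and efflux list. Against AT2-Tracer macrophages, where 21.4% of all genes were higher and 23.2% lower, 13 of its 16 genes passed 50 CPM. In AT2 cells 10 were lower and 1, Cd36 (2.67), was higher. The apolipoprotein Apoe stood at 266 CPM in AT2 cells against 24870 CPM in macrophages (-6.52), and the lipoprotein lipase Lpl at 11.3 against 857 CPM (-5.73). The phosphatidylcholine list went the other way, with 9 of 14 past 50 CPM and 8 higher in AT2 cells, led by Pla2g1b (5.13) and the acyltransferase Lpcat1 (4.43). Against AT2-Tracer AT1 cells (8.14% of all genes higher and 18.8% lower), 8 uptake genes passed, of which 4 were higher in AT2 cells, led by the fatty acid binding protein Fabp5 (4.56) and Cd36 (2.82), and 2 were lower, Abca1 (-1.88) and the cholesteryl ester hydrolase Nceh1 (-1.53). None of the 7 oxidation genes past 50 CPM was apart there. In AT2 cells against club cells 0 of 4 oxidation genes past that level were apart in the Club-Tracer and 1 of 5 in the BASC-Tracer library. Over all genes past it, 15.4% and 17.5% were higher in these AT2 cells, and 3.56% and 3.96% lower.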

How the data were processed

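The libraries measured RNA of single cells with 5′ chemistry, per the labels' protocols. The authors deposited UMI counts, whole and not normalized, made with Cell Ranger 6.1.1 on mm10 and already called as cells, per the file headers and the submitters' processing notes. The annotation release was not given in the sources used here. Deposited counts came to 62570890, 29013077 and 72256580 UMIs (Club-Tracer, BASC-Tracer, AT2-Tracer).

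Barcodes with under 500 genes (1872, 959 and 2686) and then over 15% mt- UMIs (236, 78 and 339) were left out. Doublets were kept, and their removal with Scrublet was an alternative: its automatic threshold marked 0.0313% and 0% of Club-Tracer and BASC-Tracer barcodes, so the highest scores (82 and 16 barcodes) were taken there, and 101 in AT2-Tracer. Each cell was scored on 14 marker lists as the mean log of counts per 10000, divided by the list's 99.9th percentile. It took the best list if that reached 0.5 and the second was at most 0.75 of it. This gate was set after seeing the data.

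The members and lists were chosen with earlier results of these data known. Always named were Srebf1, Fasn, Scd1, Srebf2, Hmgcs1 and Sqle, and in each comparison the members at both ends of the log2 ratio, up to 4 per branch with at least 50 CPM and 30 UMIs, and up to 2 at each end of the other lists. Gene positions are those of GENCODE vM21 and promoter windows those of RefSeq GRCm38.p6. Calculations used Python 3.11.15, scanpy 1.11.5, numpy 2.4.6, scipy 1.17.1 and pandas 2.3.3. Alternatives changed the gate, filters, scaling, free RNA, doublets, pseudocount, minimum level and thinning. Of these, a gate minimum of 0.4, a gate without Sftpc and Scgb1a1, leaving out shared barcodes or those under 3000 UMIs, and subtraction of the profile of barcodes under 500 genes up to all Sftpc outside AT2 cells were added after seeing the data.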

Additional observations from a re-analysis of the deposited data

How the results depend on the processing

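Under 18 or 19 alternatives for each comparison, 20 of 391 counts of members apart moved by over 1.5 times. Of 782 branch ratios 158 and of 1092 member levels 174 moved beyond their counting intervals, and 98 of 1992 member ratios lost their call and 1 reversed. The counts that moved were as follows. For AT2 against club cells, the BASC-Tracer count of 14 became 7 with classes from clusters. It became 9 without the 10 most abundant genes of each library in the totals, and 8 with the median ratio set to 1. The Club-Tracer count of 13 became 8 with the last of these. For AT2 against transitional Club-Tracer cells, 7 became 12 without the most abundant genes and 11 with the median ratio. In AT1 cells, BASC-Tracer against AT2-Tracer, 0 became 2 with the mean of the cells' own CPM. In macrophages, 2 became 1 with either subtraction of free RNA and with a pseudocount of 20, and 0 with a minimum of 100 CPM. In transitional cells, Club-Tracer against AT2-Tracer, 1 became 0 with classes from clusters or free RNA subtracted up to all Sftpc, 2 with a minimum of 20 CPM and 3 with no minimum. Club-Tracer against BASC-Tracer, 1 became 2 with a gate margin of 0.6 or a pseudocount of 1, 3 with classes from clusters and 0 with the median ratio. For transitional against AT1 BASC-Tracer cells, 3 became 5 with no minimum. The log2 difference of Scd1 in macrophages turned from -1.58 to 0.44 with classes from clusters. The cause of each was not tested, and the share of all genes was not computed under any alternative. The changed counts are thus no result about the members. Shares of cells with a UMI depended on the thinning, and 149 of 168 moved beyond their intervals. Subtraction of free RNA by macrophages was not run for comparisons with Club-Tracer cells, since 7 macrophages were found there. No paired analysis was possible because each lineage has 1 library.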

Other observations

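AT2-gated cells of 1 library varied in the members by cluster, where clusters were built without these genes. In AT2-Tracer AT2 cells, cluster 10 held 1065 cells with 7502 CPM of fatty acid genes and Scd1 at 3824 CPM. Cluster 4, with Cdkn1a at 2058 CPM, a p53 target that halts the cell cycle, held 213 cells with 5631 and 3036 CPM. Cluster 9, with the proliferation gene Mki67 at 171 CPM, held 143 cells with 3784 and 1424 CPM. Cluster 17 held 51 cells in which Elovl1 (1740 CPM) was close to Scd1 (2030 CPM). In Club-Tracer AT2 cells, cluster 0 (57 cells, Scgb1a1 at 117373 CPM) had the highest Scd1 of all, 6523 CPM, and cluster 15 (60 cells) a fatty acid total of 3295 CPM. These are single libraries with no replicate, and doublets with club cells were not told apart from AT2 cells that hold Scgb1a1.

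The 40 basal cells of the Club-Tracer library held Fads1 and Fads2 at 92.4 CPM each (69.0 to 121), on 52 UMIs apiece, against at most 42.5 and 26.2 CPM in the larger classes. These desaturases make long polyunsaturated chains. The class was under the 50 cells asked for, and it entered no comparison. Unassigned cells held 1911 CPM (Club-Tracer), 2984 CPM (BASC-Tracer) and 1927 CPM (AT2-Tracer) of fatty acid genes.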
